A study of Mus musculus with 4 samples.

Results

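The secreted Wnt antagonists of the skeleton measured here were Sost, Dkk1, Dkk2, Dkk3, Sfrp1, Sfrp2, Sfrp4, Frzb and Wif1. They were chosen by symbol, as the matrix rows that bear these names, and make up 9 of the 31053 genes in the tables. Their transcripts were counted as unique molecular identifiers (UMIs, 1 for each captured RNA molecule) in single cells of mouse bone, in barcodes with 1000 to 40000 UMIs and at most 10% mitochondrial UMIs. The study asked how bone cells respond to the loss of mechanical load. Tibiae and femurs of wild-type mice (Ctrl) and of wild-type mice after 28 days of hindlimb unloading (HLU) by tail suspension were flushed of marrow, digested with enzymes and sequenced with the 10x 3′ kit version 3.1. Each group had 2 mice and 2 libraries, replicate 1 and replicate 2, and the controls had no treatment. The series text places the mice at postnatal day 28, whereas the study's methods give an older age, so their age is not settled here. Libraries served as the replicates, and with 2 in each group the spread rests on few values.

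Wnt ligands signal through Frizzled receptors and the co-receptors Lrp5 and Lrp6, which stabilises beta-catenin and drives bone formation by osteoblasts. Sclerostin (Sost) and the Dickkopf proteins Dkk1 and Dkk2 bind the co-receptors, whereas the secreted Frizzled-related proteins (Sfrp1, Sfrp2, Sfrp4 and Frzb, also called Sfrp3) and Wif1 bind the ligands themselves. Dkk3 is an atypical Dickkopf protein whose action on the co-receptors is weak or absent. Sclerostin is made by mature osteocytes and is known to rise in bone that is not loaded. A count of 3′ tags gives no level per transcript length, so levels were compared between cells and samples within each gene and not between genes.

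The genes lie on 8 chromosomes of GRCm38, all as protein-coding genes of GENCODE M21. Sost is at chr11:101962458-101967015 on the minus strand, Dkk1 at chr19:30545863-30549665 on the minus strand, and Dkk2 at chr3:132085292-132180304 on the plus strand. Dkk3 is at chr7:112116017-112159057 on the minus strand and Sfrp1 at chr8:23411502-23449632 on the plus strand. Sfrp2 is at chr3:83766321-83774316 on the plus strand, on the same chromosome as Dkk2, and Sfrp4 is at chr13:19623104-19632994 on the plus strand. Frzb is at chr2:80411970-80447625 on the minus strand and Wif1 at chr10:121033960-121100650 on the plus strand.

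Promoter sequence was matched by symbol for 6 of the 9 members in RefSeq windows of GRCm38.p6, 250 bases before each start. The 3 shown are those of Wif1, Sfrp2 and Dkk2, genes whose levels separated different skeletal cells below, cut at the most upstream annotated start. Capitals mark matches, on either strand, to 5 short motifs searched by their letters. These were TGTGGT (RUNX), CTTTGA (TCF/LEF), ACAATG (SOX), GGGCGG (GC box) and TATAAA (the motif of the TATA box).
Wif1, chr10:121033754-121033959, plus strand: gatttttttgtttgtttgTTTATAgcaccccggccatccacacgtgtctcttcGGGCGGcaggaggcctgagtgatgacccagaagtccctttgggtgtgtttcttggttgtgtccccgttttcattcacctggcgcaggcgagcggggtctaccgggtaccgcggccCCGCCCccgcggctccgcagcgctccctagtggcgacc
Sfrp2, chr3:83766071-83766320, plus strand: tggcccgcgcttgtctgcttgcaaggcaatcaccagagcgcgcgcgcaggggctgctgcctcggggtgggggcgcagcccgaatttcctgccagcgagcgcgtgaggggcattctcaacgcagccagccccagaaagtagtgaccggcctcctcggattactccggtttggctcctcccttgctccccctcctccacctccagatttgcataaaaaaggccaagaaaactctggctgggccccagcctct
Dkk2, chr3:132085042-132085291, plus strand: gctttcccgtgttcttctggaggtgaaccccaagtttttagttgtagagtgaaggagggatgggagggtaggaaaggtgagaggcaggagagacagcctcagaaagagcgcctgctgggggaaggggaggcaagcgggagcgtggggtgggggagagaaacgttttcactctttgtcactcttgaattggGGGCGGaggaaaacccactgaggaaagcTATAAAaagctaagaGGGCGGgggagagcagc
The Wif1 sequence held 2 GC boxes and, near its 5′ end, a TATAAA on the other strand. The Dkk2 sequence held 2 GC boxes and a TATAAA on the gene's strand that began 32 bases before the start. The Sfrp2 sequence held none of the 5 motifs, and TCF/LEF letters were found in none of the 3. The 3 windows not shown were searched whole, without that cut. That of Dkk1 held 2 TCF/LEF matches, a TGTGGT and a TATAAA, that of Frzb a TCF/LEF match and a GC box, and that of Sost none of the 5 motifs. The Frzb window had 21 bases before the most upstream annotated start, with 0 of its matches. That of Dkk1 had 81, with 2 of its 4 matches. Of 32851 windows of 250 bases, 32.7% held a GC box, 12.4% TATAAA, 14.0% TGTGGT, 13.8% CTTTGA and 10.7% ACAATG, so these matches are common letters and are given as a description of the sequence. The motifs shared no overlapping match in the printed sequences.

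The 4 libraries held 47819046 to 99849070 UMIs in 10000 to 10003 barcodes each, and 7340 to 9485 barcodes per library were kept, 32217 in all. Libraries shared 13 to 21 kept barcode sequences per pair. Osteochondral cells were those with at least 1% of UMIs from a panel of 40 skeletal genes and with more skeletal than haematopoietic UMIs. There were 4089 in Ctrl replicate 1 (55.7% of kept barcodes) and 3231 in Ctrl replicate 2 (42.3%). The HLU libraries held 137 (1.77%) and 172 (1.81%), 7629 osteochondral cells in all. The groups therefore differed first in how many skeletal cells were in the barcodes, and the median depth of those cells was 8057, 9532, 1967 and 9946.5 UMIs in Ctrl replicates 1 and 2 and HLU replicates 1 and 2. HLU replicate 1 stood apart in depth. Transcripts of neutrophils made up 92.0 and 154 of 10000 UMIs in the Ctrl osteochondral cells and 371 and 271 in the HLU ones, against 1732 to 1981 in the remaining barcodes. With transcripts of blood cells left out of the sums, Wif1 had log2 fold changes, HLU against Ctrl, of -5.72 over all kept barcodes and -1.42 in osteochondral cells. This fit dropped listed blood genes and haemoglobin genes only. The barcodes and the members' own counts stayed the same, so the part of blood cells in these differences was not tested.

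Osteochondral cells were split by 5 markers for each of 5 gates, named here by leading markers. The Bglap gate (osteoblast markers) held 241, 174, 24 and 17 cells in Ctrl replicates 1 and 2 and HLU replicates 1 and 2. In the same order the Cytl1 gate (Cytl1, Acan, Col10a1, 1500015O10Rik and Cilp) held 1085, 934, 0 and 29, and the Col9 gate (hyaline cartilage collagens and Matn3) held 273, 477, 33 and 13. The Cxcl12 gate (stromal markers) held 235, 164, 13 and 19, and the Myoc gate (Myoc, Apod, Thbs4, Tnmd and Fmod) held 471, 195, 1 and 9. The other osteochondral cells, 1784, 1287, 66 and 85, passed no gate. The gates were not pure. In Ctrl replicates 1 and 2 the Bglap gate held 179 and 127 UMIs of the Cytl1 markers per 10000 against 63.3 and 43.1 of its own markers, while other Ctrl barcodes held 4.24 and 4.13 of the Cytl1 markers. Of the stromal markers, Cxcl12 alone was among the 10 leading genes of its gate, so that gate is called by this gene and given no cell type.

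Pooled over the 4 libraries, most UMIs of each antagonist were in osteochondral cells, a share set mainly by the Ctrl libraries. In HLU, other barcodes held 13 of 484 UMIs of Wif1, 1 of 51 of Frzb, 7 of 19 of Dkk3 and 147 of 352 of Sfrp4. They held 7 of 9 of Sfrp2, 10 of 14 of Dkk2, 15 of 23 of Sfrp1 and 1 of 1 of Dkk1. The values that follow are pooled. Wif1 had 25424 UMIs, of which 99.2% were in osteochondral cells, and Frzb had 2066, of which 98.9% were. The share was 95.3% of 615 UMIs for Dkk3, 94.6% of 925 for Sfrp2 and 84.3% of 2797 for Sfrp4. Among the sparse members it was 79.3% of 87 UMIs for Sfrp1, 78.0% of 59 for Dkk2 and 87.5% of 16 for Dkk1, and all 6 UMIs of Sost were in osteochondral cells. Sfrp4 thus had the largest number of UMIs outside the skeletal gate, 93, 198, 104 and 43 in Ctrl replicates 1 and 2 and HLU replicates 1 and 2.

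The members that bind the co-receptors, Sost, Dkk1 and Dkk2, had few UMIs, as did Sfrp1, which binds ligands. Sost, the osteocyte antagonist, had 6 UMIs, all in Ctrl replicate 2 and all in 3 cells. The cell with 4 of them held 8753 UMIs, passed no gate and had 0 UMIs of the osteocyte markers Dmp1, Phex, Mepe and Fgf23. The other Sost UMIs were in a cell of the Bglap gate with 4 osteocyte-marker UMIs and in a cell of the Cytl1 gate with 1. Osteocyte markers were themselves rare, with Dmp1 at 27, 285, 8 and 34 UMIs and Mepe at 93, 76, 0 and 0 in the osteochondral cells of Ctrl replicates 1 and 2 and HLU replicates 1 and 2. With 0 Sost UMIs in the pooled HLU osteochondral cells, a level of up to 1.01 UMIs per 1000000 UMIs was allowed by counting error, above the 0.0856 of the pooled Ctrl cells. A difference in Sost was therefore not detectable at this depth.

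Dkk1, which removes the co-receptors from the cell surface, had 8 and 6 UMIs in the osteochondral cells of Ctrl replicates 1 and 2 and none in those of HLU, which was again within the 1.01 that 0 counts allow. Across all kept barcodes the Dkk1 UMIs were 9, 6, 0 and 1, a pooled ratio of Ctrl to HLU of 17.3 with a 95% counting interval of 2.67 to 730. Dkk2 UMIs in osteochondral cells were 36, 6, 0 and 4, with 23 of those in Ctrl replicate 1 in the Myoc gate. Dkk2 was therefore high in 1 Ctrl library, and its groups overlapped.

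Dkk3 had its highest level in the Myoc gate, that of the connective-tissue markers. Its level, in UMIs per 1000000 UMIs of the same cells (CPM), was 28.9 and 14.5 in the Myoc gate of Ctrl replicates 1 and 2. It was 6.14 and 12.4 in the Cxcl12 gate, 8.52 and 2.69 in the Bglap gate, 4.89 and 1.63 in the Cytl1 gate and 1.42 and 0.336 in the Col9 gate. The Myoc gate was highest in both Ctrl libraries and the Col9 gate lowest in both. Cells that passed no gate held 13.5 and 9.46 CPM, so Dkk3 was not confined to the Myoc gate.

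Each gate was compared with the mean of the other 4 by edgeR's quasi-likelihood test on UMIs summed per library and gate, with the library as a block. The fit used 13 sums of 20 or more cells and 12201 genes, and a gene was called at a Benjamini-Hochberg adjusted p under 0.05 over all of them. From HLU only the Bglap and Col9 gates of replicate 1 and the Cytl1 gate of replicate 2 had that many cells. The Cxcl12 and Myoc gates therefore entered from the Ctrl libraries alone. All fold changes below are log2 values from such fits, on the scale of edgeR's TMM normalisation. Sost and Dkk1 were too sparse to test. In the Myoc gate 4 of the 7 members tested were called higher, against 3.79% of all genes called in either direction. Dkk3 was higher by 2.62 (SE 0.51, edgeR adjusted p = 0.0127) and Dkk2 by 4.17 (SE 0.69, adjusted p = 0.00655). The value for Dkk2 rested on few molecules, 23 UMIs in Ctrl replicate 1 and a level of 0.501 CPM in Ctrl replicate 2. In the Col9 gate Dkk3 was lower (log2 fold change -2.70, SE 0.75, edgeR adjusted p = 0.0207), 1 of 3 members called there, all lower, against 25.8% of all genes called.

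Of the antagonists that bind Wnt ligands, Sfrp2 and Sfrp4 were low in the cartilage gates of Ctrl. Sfrp2 was called higher in the Cxcl12 and Myoc gates, and so was Sfrp4, whose level in the Bglap gate was also well above that of cartilage. Sfrp2, a Frizzled-related protein, stood at 124 and 5.23 CPM in the Cxcl12 gate of Ctrl replicates 1 and 2 and at 59.5 and 40.1 in the Myoc gate. In the Bglap gate it stood at 10.1 and 3.23, in the Cytl1 gate at 1.82 and 0, and in the Col9 gate at 0.570 and 0.336. The 2 Ctrl libraries lay far apart in the Cxcl12 gate and close together in the Myoc gate. The 5 highest cells held 43.0% and 63.6% of the osteochondral Sfrp2 UMIs in Ctrl replicates 1 and 2. Cells with 10 or more Sfrp2 UMIs numbered 17 and 6. Of these 7 and 0 were in the Cxcl12 gate and 6 and 3 in the Myoc gate. The test gave Sfrp2 higher by 3.43 in the Cxcl12 gate (SE 0.56, edgeR adjusted p = 0.00171) and by 4.20 in the Myoc gate (SE 0.57, adjusted p = 0.00205), and lower in the Col9 gate at -4.48 (SE 1.09, adjusted p = 0.0116). The level of Sfrp2 between the Cxcl12 and Myoc gates differed by -0.62 (SE 0.65, edgeR adjusted p = 0.680). For that pair 485 of 12201 genes were called, and over the 10 pairs of gates 12.7% of all tests were.

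Sfrp4 levels were 80.5 and 311 CPM in the Cxcl12 gate of Ctrl replicates 1 and 2 and 134 and 113 in that of HLU replicates 1 and 2. They were 43.5 and 103 in the Myoc gate and 47.1 and 50.6 in the Bglap gate of the Ctrl libraries. The cartilage gates of Ctrl stood at 1.34 and 2.28 (Cytl1) and 6.55 and 2.52 (Col9). Every Cxcl12, Myoc and Bglap value of Sfrp4 in the Ctrl libraries lay above every cartilage value. Against the other gates Sfrp4 was higher in the Cxcl12 gate by 3.50 (SE 0.37, edgeR adjusted p = 6.9e-05) and in the Myoc gate by 2.18 (SE 0.40, adjusted p = 0.00947). It was lower in the Cytl1 gate at -4.20 (SE 0.59, adjusted p = 0.000593) and in the Col9 gate at -3.24 (SE 0.55, adjusted p = 0.00114). In the Bglap gate its difference of 1.76 did not pass (edgeR adjusted p = 0.0519). The Cxcl12 gate called 5 members, 3 higher and 2 lower, against 19.8% of all genes. Between the Cxcl12 and Myoc gates Sfrp4 differed by 1.05 (SE 0.50, edgeR adjusted p = 0.299).

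Much of the Sfrp4 signal, like that of Sfrp2, came from a few cells. In Ctrl replicate 2 the 5 highest cells held 55.4% of its osteochondral UMIs, 1 cell with 216 of them, whereas in Ctrl replicate 1 they held 17.6%. In HLU replicates 1 and 2 the 5 highest cells held 82.9% and 72.3%. Only 15 cells of each HLU library had a Sfrp4 UMI, against 206 and 167 in Ctrl replicates 1 and 2. These shares are therefore not compared between the groups. Cells with 10 or more Sfrp4 UMIs numbered 15 and 22 in Ctrl replicates 1 and 2, of which 6 and 9 were in the Cxcl12 gate, and 5 and 1 in HLU, of which 4 and 1 were in the Bglap gate. Sfrp1 was called in 1 gate, the Cxcl12 gate, at 2.63 (SE 0.83, edgeR adjusted p = 0.0437), from 5 and 10 UMIs in the 2 Ctrl libraries, whose sums alone had 20 or more cells of that gate.

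Wif1, which binds Wnt ligands through its WIF domain, was highest in the Cytl1 and Bglap gates of Ctrl and lower in the Col9 gate. In Ctrl replicates 1 and 2 it stood at 580 and 518 CPM in the Cytl1 gate and at 566 and 556 in the Bglap gate. It was 186 and 414 in the Myoc gate, 139 and 114 in the Col9 gate, and 29.7 and 43.7 in the Cxcl12 gate. The Cytl1 and Bglap values lay above all others in both Ctrl libraries, and the Cxcl12 gate was lowest in both. The Bglap gate of Ctrl held Cytl1-marker UMIs as given above, and their part in its Wif1 level was not tested. The fit over all libraries called Wif1 lower in the Cxcl12 gate at -3.55 (SE 0.93, edgeR adjusted p = 0.0194). For the Cytl1 gate the difference of 1.94 had an SE of 0.64 and an adjusted p of 0.0651, and for the Bglap gate 1.14 did not pass. In an alternative fit of the 2 Ctrl libraries alone both passed, at 2.00 (edgeR adjusted p = 0.000141) and 1.81 (edgeR adjusted p = 0.00158). How many of all genes passed in that fit is not given here, so these calls are not read as particular to Wif1. In HLU replicates 1 and 2 the Bglap gate stood at 10.9 and 205 CPM, from 24 and 17 cells, and the 29 cells of the Cytl1 gate of HLU replicate 2 stood at 393 CPM.

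Frzb, a Frizzled-related protein of cartilage, was highest in the Bglap gate of both Ctrl libraries, at 97.8 and 41.5 CPM. The Cytl1 gate stood at 45.3 and 31.0, the Myoc gate at 22.3 and 9.02, the Col9 gate at 20.2 and 20.8, and the Cxcl12 gate at 3.07 and 1.90. Frzb was called higher in the Bglap gate at 2.35 (SE 0.22, edgeR adjusted p = 0.000186), the only member called there, against 2.06% of all genes. It was called higher in the Cytl1 gate at 1.57 (SE 0.22, edgeR adjusted p = 0.000489), where 2 members were called, 1 in each direction, against 14.8% of all genes. It was lower in the Cxcl12 gate at -3.93 (SE 0.38, edgeR adjusted p = 3.5e-05). By edgeR the Bglap and Cytl1 gates differed by 0.63 (SE 0.27, adjusted p = 0.220) and the Cytl1 and Myoc gates by 1.47 (SE 0.30, adjusted p = 0.00986). The Col9 and Myoc gates, whose order differed between the Ctrl libraries, lay 0.43 apart (SE 0.32, edgeR adjusted p = 0.404), and the Col9 gate was above the Cxcl12 gate by 3.36 (SE 0.42, edgeR adjusted p = 0.000152). For these pairs, in the order given, 821, 1066, 2060 and 3653 of 12201 genes were called.

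**Figure D1:**
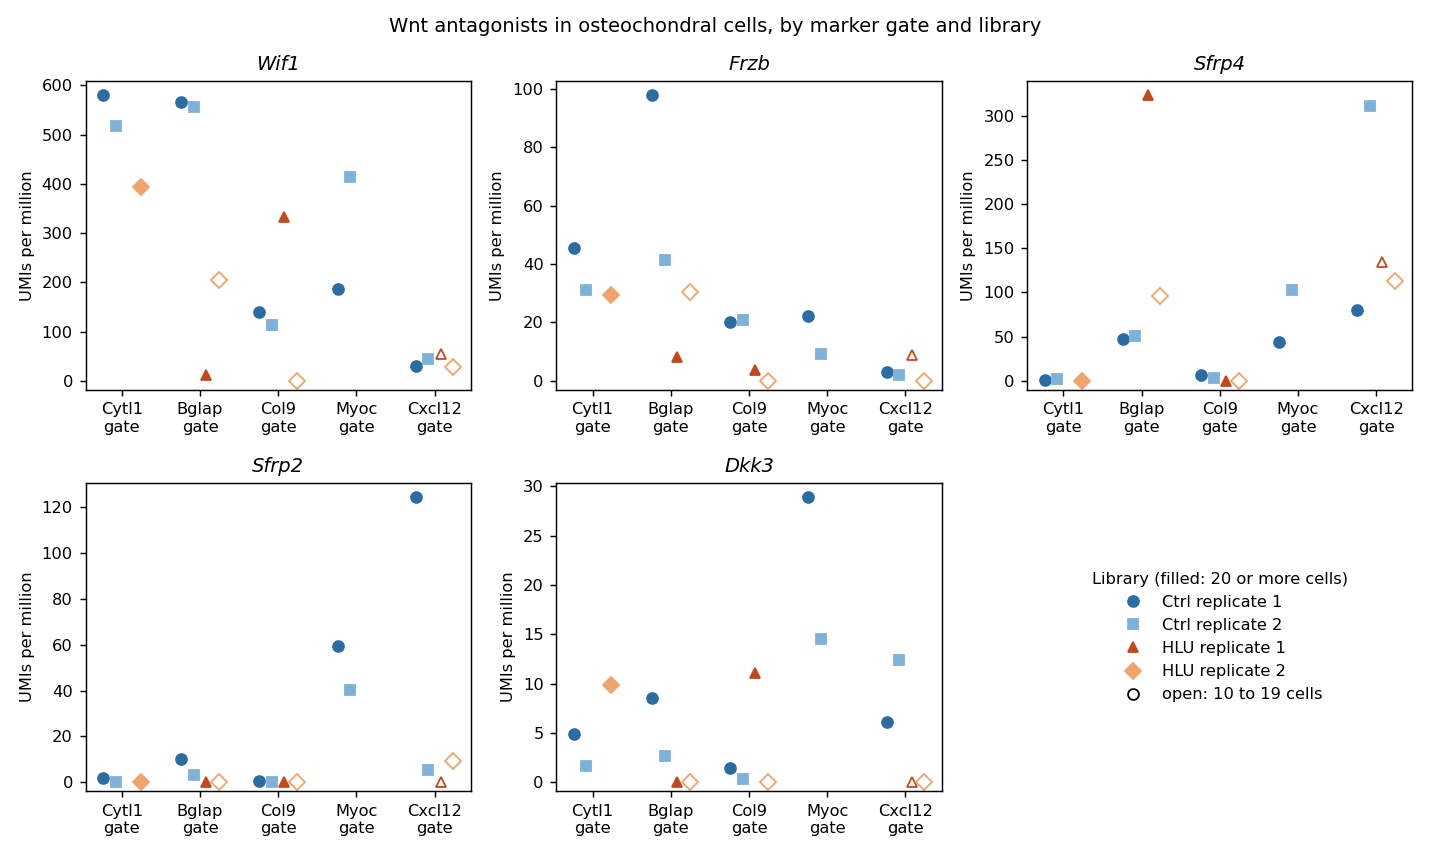
The level of Wif1, Frzb, Sfrp4, Sfrp2 and Dkk3 (CPM) in each marker gate, with 1 point for each library with 10 or more cells, filled at 20 or more. Wif1 stood at 580 and 518 CPM in the Cytl1 gate of the Ctrl libraries and at 29.7 and 43.7 in the Cxcl12 gate, and Sfrp4 ran the other way, at 1.34 and 2.28 against 80.5 and 311.

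Wif1 and Frzb were often found in the same cells of the Ctrl libraries. In Ctrl replicate 1, 81.7% of osteochondral cells with a Frzb UMI had a Wif1 UMI (exact 95% interval 78.3 to 84.7%), against 40.1% of those without (38.5 to 41.8%). In Ctrl replicate 2 the shares were 81.9% and 36.4%. Cells with Frzb were deeper, with medians of 10684 against 7712 UMIs in Ctrl replicate 1. Wif1 alone was then thinned to 2000 UMIs per cell, in cells of at least that depth, which were still sorted by Frzb at full depth. The shares were 54.6% and 24.9% in Ctrl replicate 1 and 55.6% and 22.9% in Ctrl replicate 2. Depth was thus not made equal for Frzb. Within the Cytl1 gate the shares were 83.2% and 67.9%, and 82.8% and 59.9%, unthinned, and 52.6% and 43.8%, and 49.7% and 38.1%, thinned in the same way. In HLU replicate 2, 9 of 12 cells with Frzb had Wif1. In HLU replicate 1 these were 3 of 6 cells, and the thinned shares with and without Frzb were 17.9% and 14.7%.

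Over all osteochondral cells of the Ctrl libraries a Wif1 UMI was less frequent in cells with Sfrp4. It was found in 20.9% of Ctrl replicate 1 cells with Sfrp4 and in 47.4% of those without, and in 22.8% against 42.3% in Ctrl replicate 2. Cells with Dkk3 held Wif1 in 29.6% against 47.3% in Ctrl replicate 1 and in 27.6% against 41.8% in Ctrl replicate 2. For Sfrp2 the shares were 26.4% against 46.5%, and 30.8% against 41.3% with an interval of 14.3 to 51.8% that holds the second value. In other barcodes, outside the osteochondral cut, 2.61% and 2.23% of Ctrl barcodes held a Wif1 UMI at median depths of 3845 and 3956.5 UMIs. Both lay below every share over osteochondral cells given here. Those barcodes also held 21.8 and 22.4 skeletal-panel UMIs per 10000, so they are not a background free of skeletal transcripts. In the Col9 gate of Ctrl replicate 2 Wif1 was in 0 of 7 cells with Sfrp4 and in 25.5% of those without. The shares for Sfrp4 lay closer together in the Cxcl12, Bglap and Myoc gates. They were 8.62% with and 11.3% without Sfrp4 in the Cxcl12 gate of Ctrl replicate 1 and 6.06% and 10.7% in that of Ctrl replicate 2. In the Bglap gate they were 46.7% and 64.5%, and 37.0% and 46.9%, and in the Myoc gate 11.1% and 26.1%, and 26.7% and 37.2%. In Ctrl the order turned for Sfrp4 in the Cytl1 gate of replicate 2, with Wif1 in 11 of 14 cells against 63.3% without. It turned too in the Col9 gate of replicate 1, in 2 of 4 cells against 38.3%. For Dkk3 it turned in the Myoc (28.1% against 24.8%), Col9 and Cxcl12 gates of replicate 1. In replicate 2 it turned for Dkk3 in the Bglap and Cytl1 gates. For Sfrp2 it turned in the Cxcl12 and Col9 gates of replicate 1 and the Myoc and Col9 gates of replicate 2. Over all osteochondral cells it turned for Sfrp4 in HLU replicate 1, in 3 of 15 cells against 14.8%. In HLU it also turned for Dkk3, from 2 and 7 cells, and for Sfrp2 in replicate 2, from 1 cell. These shares describe cells of single libraries and carry no test across animals.

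**Figure D2:**
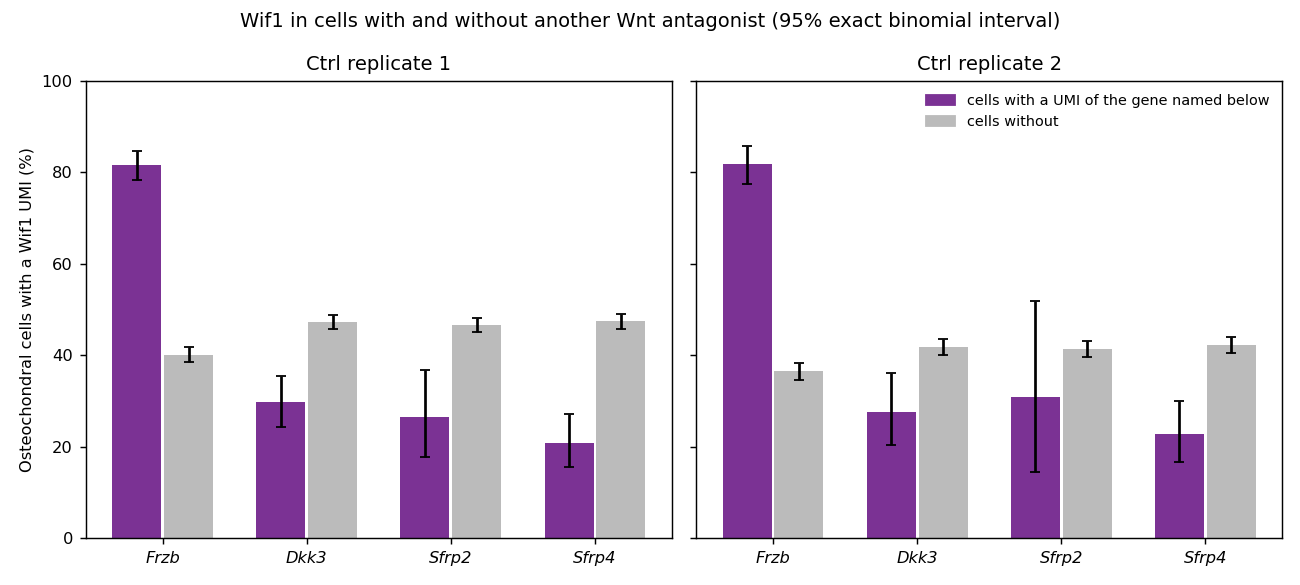
The share of osteochondral cells with a Wif1 UMI (percent) among cells with (purple bars) and without (grey bars) a UMI of another member in each Ctrl library, with exact 95% intervals that cover counting error only. Frzb was the member whose cells held Wif1 more often in Ctrl, 81.7% and 81.9%, while cells with Sfrp4 held it in 20.9% and 22.8%.

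Over the 13 sums of library and gate, the genes whose log2 level followed a member most closely by Pearson's r, among 13991 genes, were named as a description. The sums share libraries and depth. For Wif1 they were 4930425P05Rik (0.949), Trpm6 (0.931) and Endou (0.925), and for Frzb Tiam2 (0.915), Zbtb16 (0.911) and Chst1 (0.895). For Sfrp4 they were Kcne4 (0.960), Mmp23 (0.954) and Spry1 (0.953), and for Sfrp2 Cpxm2 (0.934), Igfbp2 (0.934) and Sema3c (0.934). Dkk3 was followed by Camk1d (0.898), Glud1 (0.874) and Nr4a2 (0.868). None of these was a member or a marker of a gate. Among members, r was 0.705 for Frzb with Wif1 and -0.530 for Sfrp4 with Wif1.

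In the tissue as sampled, 4 of the 9 antagonists, Wif1, Frzb, Dkk3 and Sfrp2, were called lower after unloading. Across all kept barcodes, Wif1 stood at 246 and 188 CPM in Ctrl replicates 1 and 2 and at 4.37 and 3.26 in HLU replicates 1 and 2. Frzb stood at 22.5 and 12.7 against 0.463 and 0.342, and Dkk3 at 7.27 and 3.18 against 0.243 and 0.0913. Sfrp2 stood at 13.1 and 3.0 against 0 and 0.103, and Sfrp4 at 15.0 and 27.3 against 5.78 and 1.03. Sfrp1 and Dkk2 were low in all libraries, at 0.675 and 0.442 against 0.265 and 0.126 for Sfrp1 and at 0.657 and 0.136 against 0.132 and 0.0913 for Dkk2. Both HLU libraries lay below both Ctrl libraries for all 6 members tested below, as they did for 37.1% of all genes tested. For Dkk2, which was too sparse to test, the nearest values were 0.136 in Ctrl and 0.132 in HLU. In sums over all barcodes, fewer cells of a type and less RNA per cell cannot be told apart, and osteochondral cells were 55.7% and 42.3% of Ctrl barcodes and 1.77% and 1.81% of HLU barcodes.

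Of 6 members tested among 15385 genes, 4 were called lower in HLU, against 17.1% of all genes. The log2 fold change was -5.77 for Wif1 (SE 0.35, edgeR adjusted p = 0.00326), -5.39 for Frzb (SE 0.46, adjusted p = 0.00368), -4.98 for Dkk3 (SE 0.71, adjusted p = 0.0105) and -6.87 for Sfrp2 (SE 1.26, adjusted p = 0.0204). The fitted value for Sfrp2 depends on a prior count, since HLU replicate 1 held 0 of its UMIs, and the pooled ratio of Ctrl to HLU was 118 with a 95% counting interval of 61.7 to 258. Without Ctrl replicate 1, Sfrp2 was not called (edgeR adjusted p = 0.0697). Sfrp4 at -2.62 (SE 0.81, adjusted p = 0.0745) and Sfrp1 at -1.50 (SE 0.59, adjusted p = 0.129) did not pass in edgeR.

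**Figure D3:**
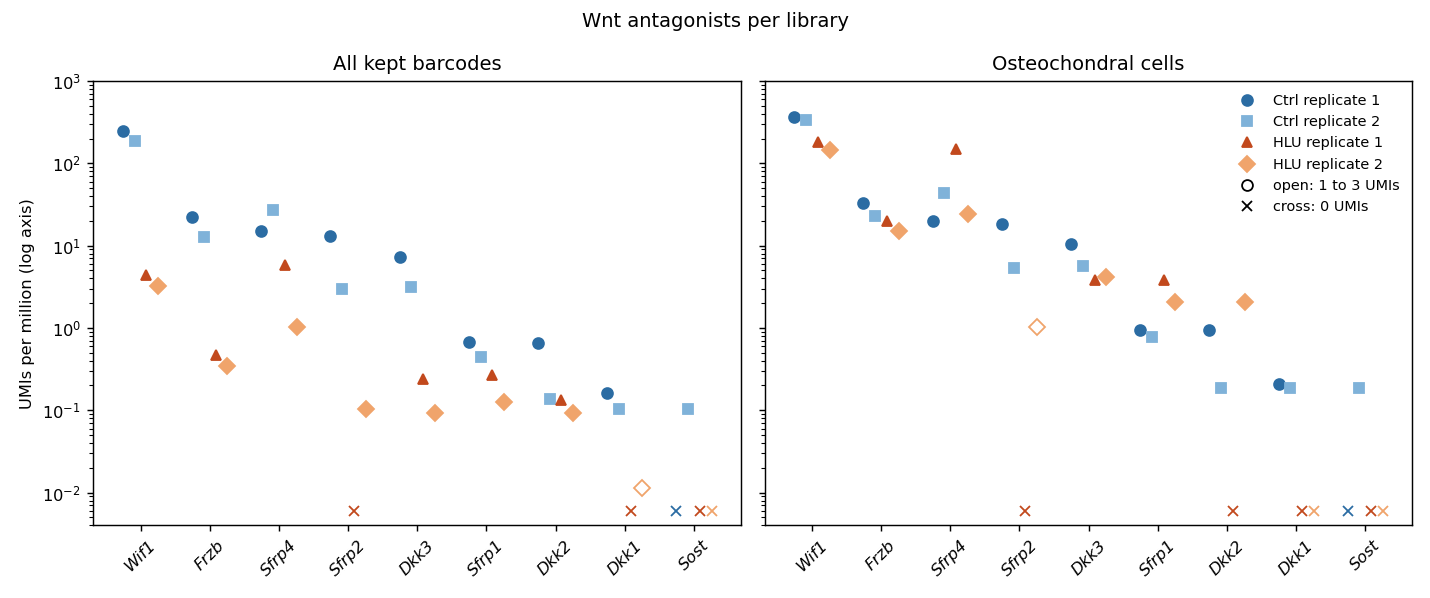
The level of each member by library (CPM, log axis) over all kept barcodes and over osteochondral cells, with 1 point for each library, open at 1 to 3 UMIs and a cross at 0. Wif1 dropped from 246 and 188 to 4.37 and 3.26 over all kept barcodes, and stood at 364 and 340 against 182 and 145 over osteochondral cells.

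Within osteochondral cells the differences were smaller, and edgeR called 0 members and 0% of all genes. Wif1 stood at 364 and 340 CPM in Ctrl replicates 1 and 2 and at 182 and 145 in HLU replicates 1 and 2, from 191 and 280 UMIs in HLU. Frzb stood at 33.2 and 22.9 against 20.1 and 15.0, and Dkk3 at 10.4 and 5.64 against 3.82 and 4.14. Sfrp2 stood at 18.5 and 5.36 against 0 and 1.03, from 0 and 2 UMIs in HLU. For these 4 of 7 members tested both HLU libraries lay below both Ctrl libraries, as they did for 15.7% of all genes tested. Sfrp4 stood at 19.8 and 43.6 against 151 and 24.3, so its groups overlapped and HLU replicate 1 alone was high. Sfrp1 stood at 0.951 and 0.775 against 3.82 and 2.07, with 4 UMIs in each HLU library, and was the 1 member higher in each HLU library than in either Ctrl library, against 39.8% of all genes.

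Among 13510 genes tested edgeR called 0 of 7 members. At an unadjusted p under 0.05 it gave 4 of the 7 members, Wif1, Frzb, Dkk3 and Sfrp2, all lower in HLU, and 1290 genes lower and 1101 higher in HLU, and DESeq2 called 338 and 294. The log2 fold change of Wif1 was -1.42 (SE 0.24, edgeR adjusted p = 0.130), of Frzb -1.01 (SE 0.30, adjusted p = 0.203), of Dkk3 -1.29 (SE 0.51, adjusted p = 0.281) and of Sfrp2 -4.44 (SE 1.25, adjusted p = 0.193). For Sfrp4 it was 1.08 (SE 0.82, adjusted p = 0.529), for Sfrp1 1.37 (SE 0.59, adjusted p = 0.307) and for Dkk2 0.87 (SE 1.43, adjusted p = 0.787). DESeq2 called 2 of the members, Wif1 (adjusted p = 2.76e-05) and Sfrp2 (adjusted p = 0.0219). The pooled Ctrl to HLU ratio of Sfrp2 was 18.6, with a counting interval of 5.12 to 154. Without HLU replicate 1 the Sfrp4 value turned to -0.66, and without HLU replicate 2 the Dkk2 value turned to -6.79.

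**Figure D4:**
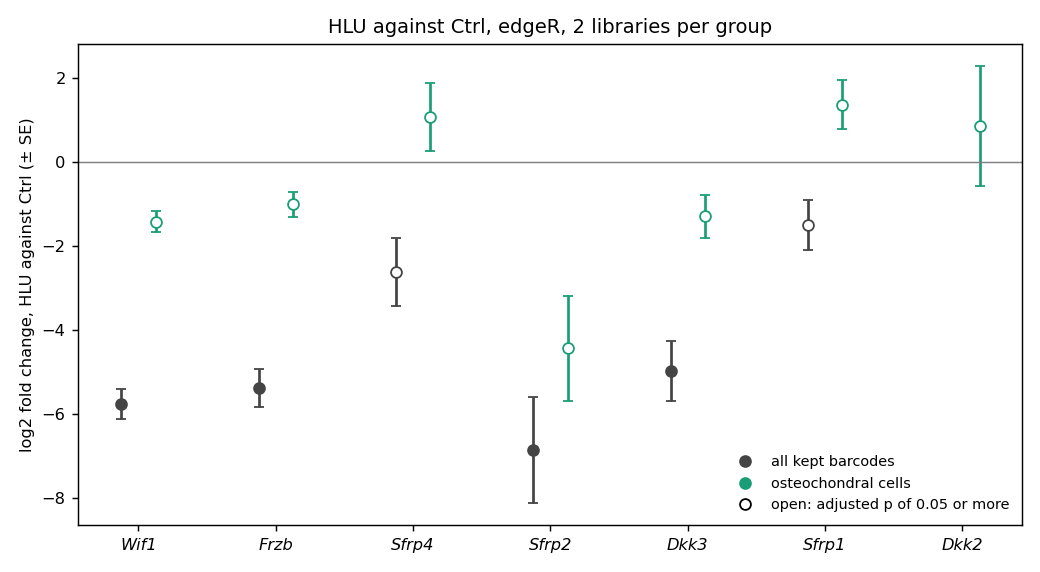
The log2 fold change of each member, HLU against Ctrl, with its standard error, from edgeR fits over all kept barcodes and over osteochondral cells, with open points where the adjusted p was 0.05 or more. The value for Wif1 was -5.77 over all kept barcodes and -1.42 over osteochondral cells, and the values for Sfrp4 and Sfrp1 lay below 0 in the first and above 0 in the second.

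Shares of cells were set at a common depth because HLU replicate 1 was shallow. A Wif1 UMI was found in 46.1% and 41.3% of Ctrl osteochondral cells and in 15.3% and 31.4% of HLU ones. After thinning to 2000 UMIs, which left out 330, 495, 69 and 20 cells, the shares were 29.4%, 26.9%, 15.0% and 17.4%. For Frzb the shares were 14.3%, 10.6%, 4.38% and 6.98%, and thinned 5.25%, 3.54%, 2.85% and 3.12%. The groups did not overlap for either gene, before or after thinning. This also held for Dkk1 and Sfrp2, lower in HLU, and for Sfrp1 and Sfrp4, higher in HLU. Dkk1 was found in 6 and 3 Ctrl cells and 0 HLU cells. A lower share cannot be shown for it, as 0 counts in so few HLU cells allow the Ctrl value. For Sfrp2 the HLU shares rested on 0 and 1 cells and for Sfrp1 on 4 and 3. How many of all genes separated in this measure was not computed. In CPM, HLU lay below Ctrl for 15.7% of genes tested and above for 39.8%. A Sfrp4 UMI was found in 5.04% and 5.17% of Ctrl cells and in 10.9% and 8.72% of HLU cells, and in 2.40%, 2.42%, 12.3% and 3.46% after thinning. For Dkk3 the groups overlapped after thinning. With 2 libraries against 2, a two-sided exact permutation test cannot give a p below 0.333, the value it gave for the Wif1, Frzb and Sfrp4 shares. In the same cells the Cytl1 markers stood at 221 and 214 per 10000 UMIs in Ctrl and at 32.3 and 86.2 in HLU. With the gate markers left out of the sums Wif1 was at -1.42 as before. That fit kept the same cells and the same Wif1 counts, so the part of a different mixture of cells was not tested.

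The 3 gates with 10 or more cells in every library were also compared by condition one at a time, an alternative added after the data were seen, since no gate had 20. No member was called by edgeR in the 9 tests made, against 0.152% of all tests, and 5 had an unadjusted p under 0.05, as did 12.7% of all tests. DESeq2 was not run on these sums. In the Bglap gate Sfrp4 stood at 47.1 and 50.6 CPM in Ctrl and at 323 and 95.9 in HLU (log2 fold change 1.90, SE 0.55, edgeR adjusted p = 0.223), from 119 UMIs in 7 cells and 22 UMIs in 4 cells in HLU. Of the 241, 174, 24 and 17 cells of that gate, 11, 8, 0 and 8 were called doublets, and neutrophil transcripts made up 50.3, 75.8, 446 and 101 of 10000 UMIs, whose part in the result was not tested. In that gate Frzb had -2.24 (edgeR adjusted p = 0.246) and Wif1 -2.71 (adjusted p = 0.305). In the Cxcl12 gate Wif1 stood at 29.7 and 43.7 in Ctrl and at 53.6 and 28.3 in HLU, a difference of -0.30 (SE 0.49, edgeR adjusted p = 0.834). In the Col9 gate Wif1 stood at 139 and 114 against 332 and 0, and Frzb at 20.2 and 20.8 against 3.69 and 0 (-3.39, edgeR adjusted p = 0.351). Sfrp1 in the Cxcl12 gate stood at 1.71 and 4.75 against 17.9 and 18.8 CPM (2.22, SE 0.84, edgeR adjusted p = 0.301), from 2 and 4 UMIs in HLU. Whether the response differed between gates was tested for 3 pairs, with 0.356% of all tests called and no member among them. The response of Sfrp4 differed between the Bglap and Cxcl12 gates by 2.39 (SE 0.69, edgeR adjusted p = 0.248).

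Other genes of the Wnt pathway are given for comparison, from 4 lists of ligands, receptors, further inhibitors, and transduction genes and targets. Over all kept barcodes 6 of 9 ligands tested were called lower in HLU, 17 of 22 receptors and R-spondins, 4 of 8 further inhibitors and 5 of 19 transduction genes and targets, against the same 17.1% of all genes, and none was called higher. The medians were -2.71, -2.60, -0.96 and -0.66 against 0.04 over all genes. The ligands called were Wnt5a, Wnt5b, Wnt7b, Wnt9a, Wnt11 and Wnt16. The further inhibitors called were Sfrp5, Notum (an enzyme that strips the lipid from Wnt ligands), Kremen1 (a receptor for Dickkopf proteins) and Znrf3 (a ligase that removes Frizzled receptors). The receptors called were Fzd1, Fzd2, Fzd3, Fzd4, Fzd7, Fzd8, Fzd9, Fzd10, Lrp5, Lrp6, Ryk, Ror1, Ror2, Lgr4 and Lgr6, and the R-spondins called were Rspo3 and Rspo4. From the fourth list these were Tcf7l1, Tcf7l2, Nkd1, Wisp1 and Tnfrsf11b (osteoprotegerin, a decoy receptor that limits osteoclasts).

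Lrp5 and Lrp6, the co-receptors that Sost and the Dickkopf proteins bind, had log2 fold changes of -1.56 (SE 0.28, edgeR adjusted p = 0.0199) and -1.27 (SE 0.27, adjusted p = 0.0290) over all kept barcodes. Of the genes with the most UMIs in the lists, Tnfrsf11b had -5.51 (adjusted p = 0.00372), Ryk -4.20 (adjusted p = 0.00525), Wnt11 -4.99 (adjusted p = 0.00841) and Wnt9a -4.99 (adjusted p = 0.00849). Kremen1 had -1.48 (adjusted p = 0.0212), Sfrp5 -4.81 (adjusted p = 0.0448) and Fzd1 -2.03 (adjusted p = 0.0123). Values for Igfbp4 (-0.44), Wnt4 (-0.69), Ctnnb1 (-0.31) and Gsk3b (-0.05) did not pass.

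Within osteochondral cells edgeR called 0 of the 5 inhibitors, 9 ligands, 20 receptors and R-spondins and 19 transduction genes and targets tested. At an unadjusted p under 0.05 there were 1, 4, 7 and 7, against 1290 genes lower and 1101 higher of all 13510 tested. The medians were 0.14, 0.57, -0.19 and 0.29 against -0.02 over all genes. Tnfrsf11b stood at 1023 and 840 CPM in Ctrl and 372 and 652 in HLU, and Wnt11 at 12.7 and 16.9 against 5.73 and 3.1. Ryk stood at 76.6 and 69.1 against 100 and 45.5 and Lrp6 at 44.5 and 37.2 against 46.8 and 39.8, so their groups overlapped. Igfbp4, which also binds co-receptors, stood at 44.4 and 71.8 against 232 and 97.2.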

How the data were processed

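Single-cell RNA of tibiae and femurs was counted in 4 libraries, 2 Ctrl and 2 HLU. The authors deposited raw UMI counts per gene and barcode, made with Cell Ranger 6.0.0 and the mm10 reference. The submitters' processing notes also name Seurat 4.1.0, and the study tested over cells. The members, gene lists and gates were chosen with earlier results of these data known. Groups came from the treatment label, and replicate numbers from the titles.

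Barcodes with 1000 to 40000 UMIs and at most 10% mt- UMIs were kept. Gates took the highest mean z score over 5 markers, with at least 2 markers found and a margin of 0.3 over the next gate, and 1402 cells had margins of 0.2 to 0.4. Within 10% of the 1% skeletal cut lay 94 cells below and 96 above. Scrublet, at 0.8% per 1000 cells, called 2098 doublets, 624 of them osteochondral. These stayed in the main fits and were left out in an alternative. Counts were summed per library and tested with edgeR 4.0.16 (TMM, filterByExpr, quasi-likelihood) and, as an alternative, DESeq2 1.42.0 in R 4.3.3, with Benjamini-Hochberg adjustment over all genes tested. The scripts were tested on simulated counts. Intervals are exact 95% binomial or counting intervals and floors are 3 counts. Both cover counting error only. Deviations of same-numbered libraries correlated at -0.0796 (osteochondral) and -0.0507 (all kept), and the main fits did not pair libraries by number. Whether libraries shared a batch was not tested. Named genes were all members, called genes and the 3 with the most UMIs of each pathway list, and the 3 most alike per member with 100 or more UMIs. Alternatives were other normalisation, no filter, each library left out, a replicate block, other cuts and margins, Ctrl alone, and sums without blood transcripts, gate markers or doublets.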

Additional observations from a re-analysis of the deposited data

How the results depend on the processing

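In osteochondral cells edgeR called 0 members and 0 genes. DESeq2 called 2 members with 338 genes lower and 294 higher, and omission of the filter on low counts gave 3 members with 778 lower and 513 higher. Leaving out 1 library gave 0 to 1 members, 0 to 915 genes lower and 0 to 641 higher. Wif1 was the member called without HLU replicate 1 (915 lower, 641 higher) or HLU replicate 2 (310 lower, 212 higher), an outcome with 1 HLU library that is assumed to vary like the Ctrl ones. Over all kept barcodes 4 members were called, and 3 without Ctrl replicate 1, which lost Sfrp2, while DESeq2, the unfiltered fit and the fits without HLU replicate 1 or 2 added Sfrp4. Genes lower numbered 2636, and 848 to 4158 with 1 library left out, the least without Ctrl replicate 1. Genes higher numbered 932, 1627 by DESeq2 and 0 to 3568 with 1 library left out (0 without Ctrl replicate 1, 5 without Ctrl replicate 2). Within gates no member was called by the main fits. Member calls with 1 library left out came from fits that left 1 library in a group. They are not read here, as the calls over all genes in those fits are not given. The replicate block called 0 members in osteochondral cells, 5 over all kept barcodes, adding Sfrp4, with 2591 genes lower and 837 higher, and 0 within gates. Between gates 15 calls became 16 to 18 under the alternatives, whose calls over all genes are not given here.

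Directions turned for Dkk2 in osteochondral cells with 1 library left out (-6.79 without HLU replicate 2 to 1.56 without HLU replicate 1) and for Sfrp4 (-0.66 without HLU replicate 1 to 1.90 without HLU replicate 2). Between gates they turned for Dkk3 in the Bglap gate (0.24 in Ctrl alone, 0.078 with double the skeletal cut, 0.67 with double the margin), Sfrp2 in the Bglap gate (-0.20 with no margin), Frzb in the Col9 gate (-1.17) and Myoc gate (0.37) with double the margin, and Wif1 in the Col9 gate (0.40 with no margin). The cause was not tested. Of 345 values for single genes 304 kept their direction and side of the threshold. Depth limits Sost, Dkk1, Dkk2 and Sfrp1, and the few HLU osteochondral cells limit every comparison by condition within them.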

Other observations

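Wif1 was also present in barcodes that the depth filter removed. In barcodes under 1000 UMIs it stood at 156 and 125 CPM in Ctrl replicates 1 and 2, from 179 and 162 UMIs, and at 1.44 and 5.11 in HLU replicates 1 and 2, from 2 and 1 UMIs. Sost had 0 UMIs in these barcodes, in those over 40000 UMIs and in those over 10% mt- UMIs of every library. In barcodes over 40000 UMIs Sfrp4 had 192 and 160 UMIs in HLU replicates 1 and 2, at 240 and 13.4 CPM. In Ctrl replicates 1 and 2 it had 1 and 42 there, at 3.81 and 54.8 CPM. The kept HLU barcodes held 352 Sfrp4 UMIs, and the part of the removed ones in its difference by condition was not tested.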
